A study of Mus musculus with 47 samples.

Results

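Kit and Kitl, the genes of a receptor tyrosine kinase and of its ligand, were followed through single neuropeptide Y (NPY)-positive neurons of the mouse brain. They are 2 of the 22800 gene symbols in the count table and were chosen by name, because Kit had stood out between auditory cortex (AC) and CA3 in earlier work on the same values. Their levels are therefore given as a description, without a test. Each library came from the content of 1 cell drawn into the patch pipette in a brain slice. The 47 columns were labelled as 20 NPY-positive cells of AC, 21 of CA3, 3 of CA1, 2 of the dentate gyrus (DG) and 1 NPY-negative cell of CA3. All came from mice of 3 to 8 weeks in which a fluorescent protein marks NPY-expressing cells. The GEO labels call the strain NPY-EGFP and the study's methods call it NPY-hrGFP. A total of 8 mice is given, but no cell is tied to a mouse, so the cells of a region count as 1 sample and SDs over cells describe cells only. Hippocampal slices were cut horizontally and neocortical ones coronally, so AC and slice plane cannot be told apart, while CA1 and CA3 share a plane.

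Kit is a receptor of the cell surface with an intracellular kinase. Kitl, also called stem cell factor, binds it, pairs 2 receptor molecules and starts signalling through phosphoinositide 3-kinase (PI3K), Ras-MAPK kinases and Src kinases. The pair is best known from blood stem cells, mast cells, melanocytes and germ cells. In the brain both genes are expressed by some neurons, and Kit is found in part of the cortical and hippocampal interneurons.

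According to the GENCODE annotation of GRCm38, Kit (ENSMUSG00000005672.12) lies at chr5:75574916-75656722 on the plus strand and Kitl (ENSMUSG00000019966.18) at chr10:100015630-100100416 on the plus strand. Both are protein coding, and no annotated gene overlaps either of them. Each gene makes a long and a short form that differ by a coding segment, and the segments are shown because the deposited count of a gene sums both forms. In Kit the end of exon 9, chr5:75639147-75639158, adds 12 bases just outside the membrane-spanning part. In Kitl the whole of exon 6, chr10:100080857-100080940, adds 84 bases with the region at which proteases cut the ligand free, and without it the ligand stays mostly at the membrane. Capitals mark the bases that only the longer coding sequence holds, 5′ to 3′ on the plus strand with 24 flanking coding bases on each side.
Kit, exon 9: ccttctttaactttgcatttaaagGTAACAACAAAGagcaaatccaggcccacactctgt
Kitl, exon 6: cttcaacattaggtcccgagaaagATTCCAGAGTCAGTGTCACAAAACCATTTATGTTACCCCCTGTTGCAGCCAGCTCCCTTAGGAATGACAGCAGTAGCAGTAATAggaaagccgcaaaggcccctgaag
The longer Kit sequence has 2937 coding bases and the shorter 2925. For Kitl the lengths are 819 and 735 bases. Which form was read in which cell was not analysed here.

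The comparisons rest on 26 cells, called the main cells: 10 of AC, 13 of CA3 and all 3 of CA1. The AC and CA3 cells are those that an earlier comparison had matched to cells drawn in the study's heat maps. The study kept more CA3 neurons than these 13 after its quality control, so they do not cover all of its CA3 cells. Their depth was 1715012 to 6265431 gene reads in AC, 2229519 to 7949918 in CA3 and 601781 to 3202430 in CA1. Gad1, a gene of GABA synthesis, and Npy were read in every main cell. Outside this set Npy itself was often missing, since 5 of 10 AC columns, 7 of 8 CA3 columns, both DG columns and the NPY-negative column had no Npy read. Of these, 10 columns (1 of AC, 6 of CA3, both of DG and the NPY-negative one) held 16033 to 177000 CPM of astrocyte or oligodendrocyte markers and no read of Gad1, Gad2 or Npy, against their labels, and none is a main cell. Columns N4 and N4X, labelled as separate AC cells, differed far less than any other pair of AC columns or of CA3 columns, with a chi-square per degree of freedom of 2.02 against at least 28.9 in 399 other pairs, and were counted as 1 cell. Levels are given in CPM (reads per 1000000 gene reads of the cell) or as log2(scran-normalised count + 1), and intervals cover counting error only.

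Kit was high in every main cell of AC and CA1 and was not detected in most cells of CA3. In AC it ranged from 571 CPM in cell N46 over a median of 2054 to 3214 CPM in cell N41, with 1853 to 14732 reads per cell. In CA1 the 3 cells had 5643 (N1), 2516 (N2X) and 2828 CPM (N6). In CA3, 11 of 13 cells had no Kit read, at limits of 0.377 to 1.35 CPM that 3 reads in a cell would give. The 2 exceptions were N38 with 359 reads (97.8 CPM) and N29 with 90 reads (28.4 CPM). Even N38 lay below the lowest AC cell, so CA3 overlapped with neither other region, whereas AC and CA1 overlapped.

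**Figure D1:**
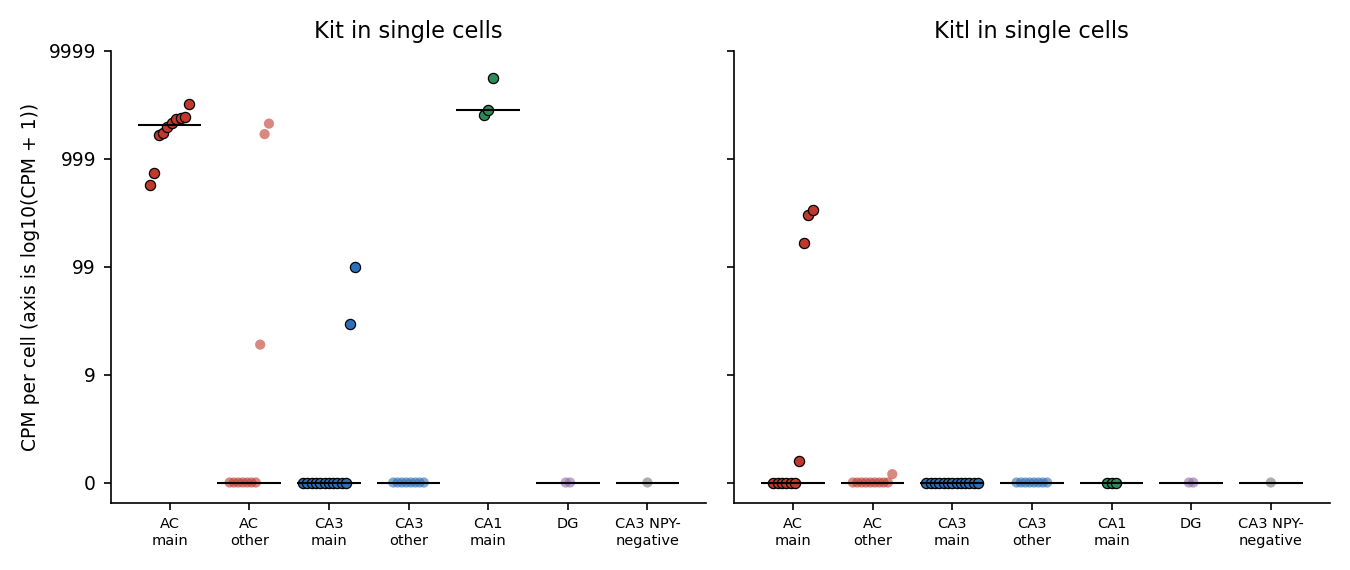
Kit (left) and Kitl (right) in each of the 47 libraries, in CPM on an axis of log10(CPM + 1), by labelled region; strong points are the 26 main cells, faint points the other columns, and horizontal lines are medians over cells. All 10 AC and 3 CA1 main cells lie at or above 571 CPM for Kit while 11 of 13 CA3 cells lie at 0, and Kitl lies well above 0 in 3 AC cells.

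Over the summed reads of each region Kit reached 2014 CPM in AC (95% Poisson interval 1999 to 2029), 2966 CPM in CA1 (2919 to 3014) and 9.19 CPM in CA3 (8.36 to 10.1). It was read in 10 of 10 AC cells (95% Clopper-Pearson interval 69.2 to 100%), 3 of 3 CA1 cells (29.2 to 100%) and 2 of 13 CA3 cells (15.4%, 1.92 to 45.4%). The CA3 sum came from N29 and N38 alone.

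On the log2 scale the mean level of Kit was 12.54 ± 0.87 (SD, n = 10 cells) in AC, 13.49 ± 0.69 (n = 3) in CA1 and 1.14 ± 2.80 (n = 13) in CA3. The difference of AC minus CA3 was 11.40, and summed CPM differed 219-fold. This fold rests on N38, which held 359 of the 449 CA3 reads, and without it CA3 came to 1.99 CPM and the fold to 1011. A difference of at least 1 is spoken of as called below. Of the genes, 6597 had reads in 10 or more main cells and were compared, and 15.9% of them were at least 1 higher in AC and 47.3% at least 1 lower, with a median of -0.87. Counted relative to this median, 29.4% were higher and 29.4% lower, and the Kit difference was 12.27. By mean log2 level Kit held the largest difference of the 6597 genes, which is the property it was chosen for. Centring on the median cannot change this rank. By summed CPM the ratio of AC to CA3 was larger for Sv2c, at 1158-fold. Only 0.0303% of them, namely Kit and Sv2c, had every AC cell above every CA3 cell.

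CA1 minus CA3 was 12.35, with a 323-fold ratio of summed CPM that became 1489-fold without N38. Here 29.6% of genes were at least 1 higher in CA1 and 0.47% did not overlap in that direction. By mean log2 level Kit again ranked 1 of 6597. AC minus CA1 was -0.95, a 1.47-fold higher summed CPM in CA1, and was not called, while 41.4% of all genes were at least 1 lower in AC than in CA1 and 27.1% at least 1 higher. Relative to the median of that comparison, -0.46, it came to -0.49. The order CA1, AC, CA3 thus has a gap above CA3, while CA1 and AC overlap. In CPM 9 of the 10 AC cells lay below the lowest CA1 cell. On the log2 scale N41 (13.83) and N42 (13.45) lay above the CA1 cells N2X (13.08) and N6 (13.11). The 3 comparisons share cells.

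Within the 10 main cells of AC, Kit varied less than most genes read in all of them. Its SD of 0.87 ranked 51 from the lowest among these 455 genes, whose median SD was 1.51. These genes were not matched to Kit for level. Per kb of its longest coding transcript (5241 bases) Kit stood at 384 CPM per kb in AC, rank 98 of 11185 genes read there. In CA1 it stood at 566 CPM per kb, rank 40 of 8276. In CA3 it stood at 1.75 CPM per kb, rank 9050 of 12120.

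The lowest AC values were those of N46 (571 CPM) and N44 (731 CPM), and the other 8 cells lay between 1672 and 3214 CPM. N44, N46 and N7 were also the AC cells without a Nos1 read, the gene of neuronal nitric oxide synthase. Their Kit levels were 731, 571 and 1970 CPM against 1672 to 3214 CPM in the 7 cells with Nos1, so the ranges overlapped in N7. AC cells with Ndnf, which marks neurogliaform cells of the outer cortical layer, had 731 to 3214 CPM of Kit (7 cells). The 3 without it had 571 to 2439 CPM, and no separation was seen.

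Kitl was read in few cells, and in AC cells only. The reads lay in N43 (1039 reads, 333 CPM), N7 (675 reads, 299.6 CPM), N5 (309 reads, 163 CPM) and N4 (1 read, 0.583 CPM), while the other 6 AC cells had none. N4 is at the limit of detection, since its second column N4X held no Kitl read. The share of AC cells was 4 of 10 (12.2 to 73.8%) with any read and 3 of 10 with at least 10 reads. None of 13 CA3 cells (0 to 24.7%) and none of 3 CA1 cells (0 to 70.8%) had a read. Kitl thus went with a minority of AC cells, and the intervals of the shares in the 3 regions overlap.

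Summed over AC, Kitl came to 59.4 CPM (56.9 to 62.1), or to 31.8 CPM without N43. The limit set by 3 reads over the region was 0.0614 CPM in CA3 and 0.596 CPM in CA1. By read counting alone, the summed level of these cells was at least 968-fold lower in CA3 and at least 99.7-fold lower in CA1. These bounds leave out the sampling of cells, and most AC cells had no Kitl read either, so they are no minimum for the regions. Without N43 these bounds were 519-fold and 53.4-fold, and without the CA1 cell N2X, which sets much of the CA1 depth, the bound for CA1 was 36.3-fold. The mean log2 level in AC was 3.03 ± 4.56 (SD, n = 10 cells), a spread wider than the mean, and the median over AC cells was 0. With reads in 4 of 26 cells Kitl is not among the 6597 genes compared. Per kb of transcript (5648 bases for Kitl) AC held 10.5 CPM per kb of Kitl against 384 of Kit, and Kitl ranked 5620 of 11185.

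Since every main cell of AC had Kit, each of the 4 main cells with a Kitl read also had Kit, and this says nothing of a link between them. The 3 cells with at least 10 Kitl reads held 1672 to 1970 CPM of Kit. This lies inside the 571 to 3214 CPM of the other 7 AC cells. Outside the main cells the AC column N48 had 1 Kitl read and no Kit read.

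Genes that mark interneuron classes were set beside Kit in the 26 main cells. Lhx6, a transcription factor of interneurons born in the medial ganglionic eminence, was listed at 0 reads in all 10 AC and 3 CA1 cells and was read in 12 of 13 CA3 cells, where its summed level was 328 CPM. Taking at least 10 reads as present, 15 cells had Kit without Lhx6, 10 had Lhx6 without Kit, 0 had both and 1 had neither. The cell with neither was N27, with 2 Lhx6 reads. The CA3 cells with Kit, N38 and N29, had 2 and 0 Lhx6 reads. Every cell with Kit thus had at most 2 Lhx6 reads, while N27 had the same trace without Kit. Lhx6 also had the lowest correlation with Kit of all genes compared, so this pair was picked out by its pattern and is no test.

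**Figure D2:**
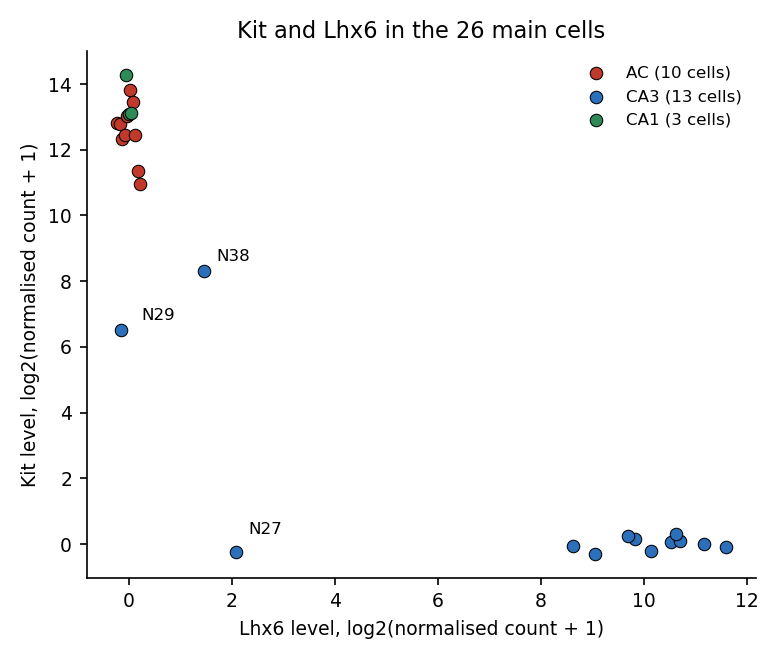
Kit against Lhx6 in the 26 main cells, both as log2(normalised count + 1), coloured by region; points at 0 are shifted by a small fixed step so that they can be seen. Cells lie along the axes, with 15 cells that have Kit and fewer than 10 Lhx6 reads, 10 CA3 cells on the Lhx6 axis without Kit, and N27 with 2 Lhx6 reads and no Kit.

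Ndnf was read in 11 of the 26 cells, and all 11 had Kit. These were 7 AC cells, 3 CA1 cells and the CA3 cell N29, which held 2125 Ndnf reads. Prox1, a transcription factor of interneurons born in the caudal ganglionic eminence, was read in 12 cells, of which 11 had Kit. Taking at least 10 reads as present, 8 cells had both, 7 had Kit without Prox1 and 1 had Prox1 without Kit. The CA3 cell N26 had 256 Prox1 reads, 347 Lhx6 reads and no Kit. Car4, a carbonic anhydrase gene, was read in 10 cells, all with Kit. Nos1 was read in 8 cells with Kit and in 9 without, all 9 of CA3. Since every AC and CA1 main cell had Kit, any main cell without it was of CA3. The counts for Ndnf, Prox1, Car4 and Nos1 thus largely repeat the regions and are no test of a link to Kit.

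By Pearson correlation of log2 levels over the 26 main cells, the genes most like Kit were Parm1 (r = 0.95), Sv2c (0.91), Atxn2l (0.68), Ndnf (0.68) and Ncdn (0.67). Those least like it were Lhx6 (-0.92), Alcam (-0.88) and Col25a1 (-0.82), all listed at 0 in AC and CA1. The cells share region, size factors and depth. Within the 10 AC cells the correlation with Kit was 0.32 for Parm1, 0.39 for Sv2c, 0.21 for Atxn2l, -0.01 for Ndnf and 0.37 for Ncdn. Much of each pooled value therefore came from the gap between regions. Kit, Parm1, Sv2c, Lhx6 and Alcam are among the genes that the study drew as different between AC and CA3, so their likeness is not independent evidence.

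Parm1 codes for a membrane mucin and Sv2c for a synaptic vesicle protein. Kit, Parm1 and Sv2c were the 3 genes read in all 10 AC cells and in at most 2 CA3 cells, and all 3 were read in every CA1 cell. In CA3 Parm1 was read in N29 alone (479 reads), a cell that also had Kit. Sv2c had 18 reads in N33 alone, and N38 had Kit without either.

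The genes most like Kitl were Phf13 (r = 0.63), Igf1 (0.62), Sema4g (0.61), Ralgps1 (0.61) and Col4a2 (0.61). Those least like it were Hdgf (-0.80), Hnrnpa2b1 (-0.71) and Tubb4a (-0.71). Since only 4 of the 26 points have Kitl reads, and 1 of these a single read, these values rest on N43, N7 and N5.

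Kit belongs to class III of the receptor tyrosine kinases, with the receptors for platelet-derived growth factor (Pdgfra, Pdgfrb), for colony-stimulating factor 1 (Csf1r) and Flt3. Pdgfra and Pdgfrb had no read in any main cell. Flt3 was read in 1 AC and 5 CA3 cells at 8.81 and 10.2 CPM. Csf1r was read in 4 AC, 8 CA3 and 0 CA1 cells, at 419 CPM in AC and 26.1 CPM in CA3, with a difference of 0.33 in mean level. Csf1r is also on the list of microglia markers described below. Among ligands of the class other than Kitl, Pdgfa, a platelet-derived growth factor chain, had reads in 6 of 10 cells of AC and in all 13 of CA3, with a log2 difference of -3.99. None of the other class III receptor genes followed the pattern of Kit.

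Of the 57 receptor tyrosine kinase genes other than Kit, 37 were read in a main cell and 15 were among the genes compared. Of these, 4 were called higher in AC and 4 lower (26.7% each, beside 15.9% and 47.3% of all genes), with a median difference of 0.19. Relative to the median of all genes 8 were higher and 4 lower. Higher were Alk (2.92), Epha10 (2.22), the epidermal growth factor receptor Egfr (1.86) and Lmtk2 (1.44). Lower were Epha7 (-5.41), Epha5 (-4.37), Epha6 (-3.57) and Ddr2 (-2.20). Genes of the Eph family thus stood on both sides. Epha7 and Epha6 were each read in 1 AC cell, with 9 and 7 CA3 cells, so they passed the filter mainly through CA3. Among genes read in too few cells to be compared, Ephb3 (2.88) had reads in 4 AC and 0 CA3 cells. Epha3 (-2.74), also not compared, had reads in 1 AC and 6 CA3 cells. None of the 15 came near the 11.40 of Kit.

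**Figure D3:**
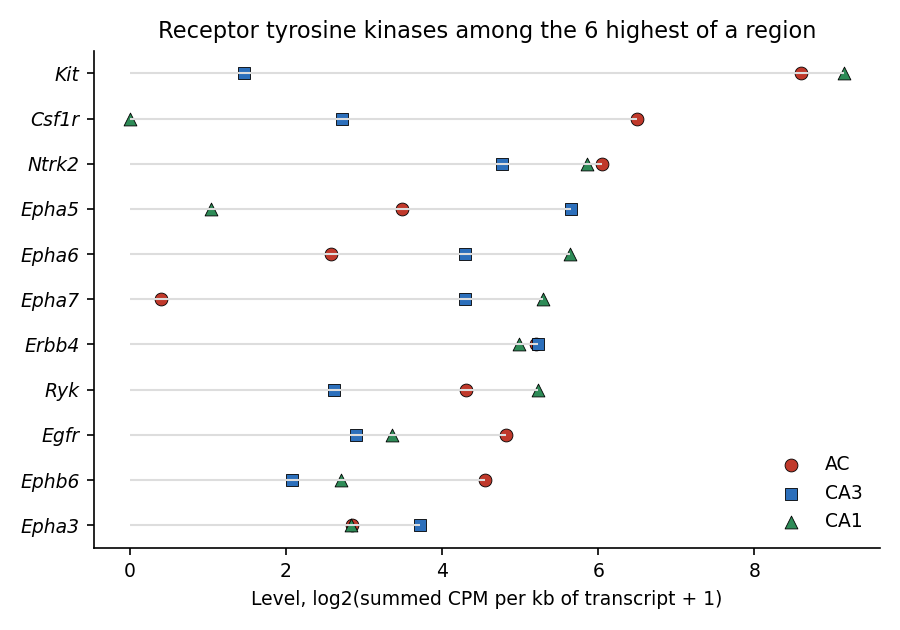
Receptor tyrosine kinase genes among the 6 highest in any region, as log2(summed CPM per kb of transcript + 1) in AC (circles), CA3 (squares) and CA1 (triangles). Kit is the highest of the family in AC and CA1, at 384 and 566 CPM per kb, and far lower in CA3, at 1.75.

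Per kb of transcript Kit led the family in AC with 384 CPM per kb, followed by Csf1r (89.1), the neurotrophin receptor Ntrk2 (65.0) and the neuregulin receptor Erbb4 (35.8). The place of Csf1r rests on N42, the AC cell with the most microglia marker reads, which held 9908 of its reads, and without N42 it came to 30.6 CPM per kb. Erbb4 came to 19.2 CPM per kb without N3X. In CA1 it led with 566 CPM per kb, followed by Ntrk2 (56.7) and Epha6 (48.9, or 0.278 without N2X). In CA3 the order was Epha5 (49.1), Erbb4 (36.4) and Ntrk2 (26.3), and Kit ranked 19. Leaving out any 1 cell, Kit stayed between 351 and 413 CPM per kb in AC and between 497 and 716 in CA1.

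The genes through which Kit signals were taken from 6 lists of 62 genes in all, of which 60 were read in a main cell and 34 were among the genes compared. In AC minus CA3, 9 were called higher and 12 lower, which is 26.5% and 35.3% of the 34 beside 15.9% and 47.3% of all genes, with medians of -0.18 and -0.87. Relative to the median of all genes the split turned to 15 higher and 9 lower, so the balance of directions depends on the centring. Kit's signalling genes did not share the large regional gap of the receptor.

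**Figure D4:**
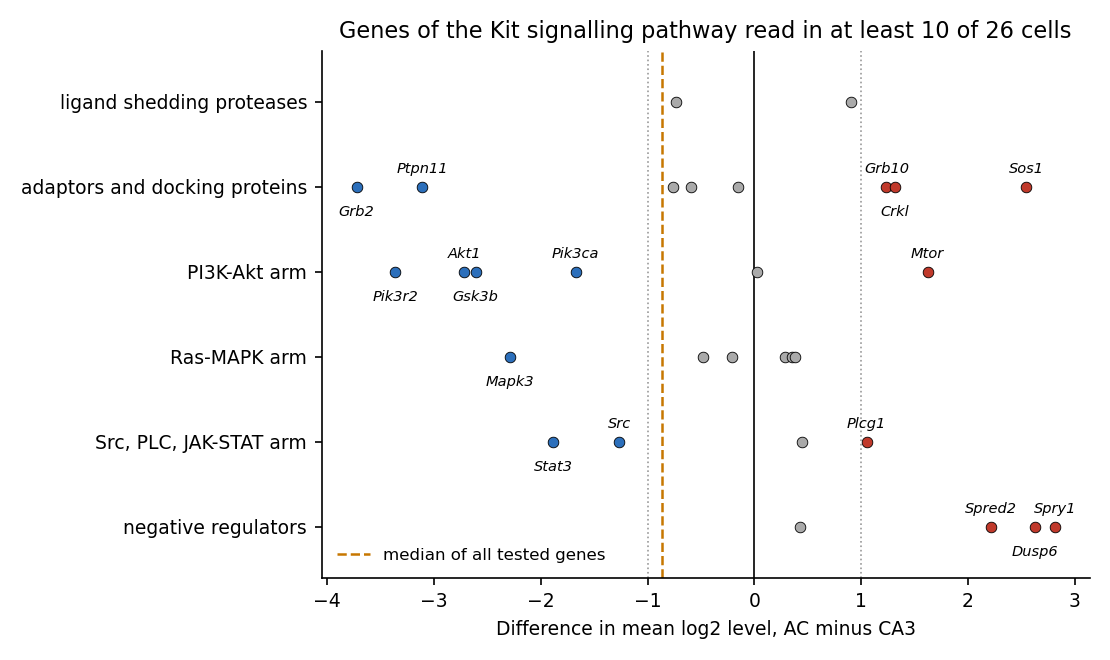
AC minus CA3 difference of mean levels on the log2 scale for 30 of the 34 compared genes of the Kit signalling lists, 1 row per list; dotted lines mark differences of 1 and the dashed line the median of all 6597 genes, -0.87. The genes drawn lie between -3.72 (Grb2) and 2.81 (Spry1), and 8 lie beyond 1 and 9 beyond -1.

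Proteases that shed the ligand did not pass a difference of 1. Adam10 (-0.73) was read in 5 AC and 6 CA3 cells and Adam17 (0.90) in 3 and 5. Relative to the median of all genes Adam17 came to 1.77, which passed a difference of 1, and Adam10 to 0.13. Among adaptors, which link the receptor to its pathways, 3 of 8 were higher and 2 lower (37.5% and 25%, beside 15.9% and 47.3% of all genes). Sos1, the exchange factor that loads Ras, was 2.55 higher in AC (98.2 against 6.14 CPM summed). Crkl was 1.31 and Grb10 1.24 higher. Grb2, which brings Sos1 to active receptors, was lower in AC with a difference of -3.72, and 4 of 10 AC against 12 of 13 CA3 cells had reads of it (7.78 against 55.6 CPM). Ptpn11, the phosphatase SHP2, was lower too, at -3.11 (23.8 against 118 CPM). Grb2 is among the genes the study drew as different, so its part in the count is not independent.

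In the PI3K-Akt arm 2 of 7 were higher and 4 lower (28.6% and 57.1%, beside 15.9% and 47.3% of all genes), with a median of -1.67. Relative to the median of all genes 2 were higher and 3 lower. Mtor, the gene of a growth-regulating kinase, was 1.62 higher in AC, with reads in 7 AC and 7 CA3 cells. Lower in AC were Pik3r2 (-3.36) and Pik3ca (-1.67), a regulatory and a catalytic PI3K subunit, and the kinases Akt1 (-2.71) and Gsk3b (-2.61). Summed CPM in AC and CA3 lay closer for Akt1 (102 against 111) and Pik3r2 (165 against 221). It was 84.7 against 142 for Pik3ca and 33.6 against 116 for Gsk3b. Akt1 was read in 5 AC and 12 CA3 cells. Pik3r1, the regulatory subunit best known to bind Kit, had reads in 4 AC and 4 CA3 cells and was not among the genes compared.

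In the Ras-MAPK arm 0 of 9 were higher and 4 lower (44.4%, close to the 47.3% of all genes), with a median of -0.48. Relative to the median of all genes 3 were higher and 3 lower. The kinase gene Mapk3 (-2.29) was lower by mean log2 level, but its summed CPM went the other way, at 159 against 157 CPM. Map2k1, which codes for a kinase directly upstream in this arm, was read in all 26 cells and differed by 0.39.

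Among Src kinases, phospholipase and JAK-STAT genes, 1 of 4 was higher and 2 lower (25% and 50%, beside 15.9% and 47.3% of all genes), and relative to the median of all genes the split turned to 2 higher and 1 lower. The phospholipase gene Plcg1 was 1.05 higher, Src differed by -1.26, and Stat3 differed by -1.88 with summed CPM the other way (67.1 against 57.9). Of 13 genes that damp the signal 4 were compared. Of these, 3 were higher in AC and 0 lower (75% and 0%, beside 15.9% and 47.3% of all genes). Their median was 2.42, and relative to the median of all genes all 4 were higher. Among the 9 read in too few cells, Socs6 was read in 0 AC and 4 CA3 cells (-2.24). Of the 4 compared, Spred1 differed by 0.42. The 3 called higher were Spry1 (2.81) and Spred2 (2.21), which restrain Ras-MAPK signalling, and Dusp6 (2.63), a phosphatase of MAP kinases. They were read in similar numbers of cells of both regions, 6 of 10 and 6 of 13 for Spry1, 5 and 5 for Spred2, and 8 and 9 for Dusp6. Relative to the median of all genes, Pik3ca and Src were among those that no longer passed a difference of 1.

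Of 7 transcription factors that act on Kit in blood, mast or pigment cells, Gata1, Gata2, Gata3 and Tal1 had no read in a main cell. Mitf was read in 1 CA3 and Myb in 1 AC cell. Lmo2, a bridging protein of such complexes, had reads in 8 AC, 4 CA3 and 2 CA1 cells and was 3.40 higher in AC than in CA3 (134 against 25.8 CPM).

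Neighbouring protein-coding genes were looked up in the RefSeq annotation of GRCm38.p6. Pdgfra and Kdr, receptor genes 377 and 276 kb from Kit, and Gsx2 had no read in a main cell. Chic2 (-2.82) and Tmem165 (-2.98) were lower in AC than in CA3, and Srd5a3 was read in 3 AC and 5 CA3 cells. Near Kitl, Dusp6 at 748 kb was 2.63 higher in AC, Poc1b was read in 2 AC cells, Csl had 10 reads in AC and 9 in CA3, and Gm4301, Gm4302 and Gm4303 had none. No neighbour on either side showed the gap of Kit.

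Markers of other cells that could carry Kit or Kitl RNA were read in the same libraries. All 6 mast cell markers, the precursor markers Pdgfra, Cspg4 and Olig2 and the endothelial markers Cldn5, Flt1 and Cdh5 had 0 reads in the 26 main cells, a limit of 0.0341 CPM. The remaining members of these lists were read, Olig1 with 151 reads, of which 128 (213 CPM) lay in the CA1 cell N1 that had the most Kit, and Pecam1 with 192 reads, of which 168 lay in the CA3 cell N34. Without N1 summed Kit in CA1 was 2602 CPM. Astrocyte markers did differ, with 5 of 6 read and summed levels of 0.247 to 1210 CPM per cell in AC (median 68.8), 2 of 6 and 0 to 660 CPM in CA3 (median 1.87) and 4 of 6 and 117 to 1167 CPM in CA1, while Aqp4 was at 0 in all of them. In the 2 AC cells with under 1 CPM of these markers, N3X and N44, Kit was 2359 and 731 CPM, and in the other 8 it was 571 to 3214 CPM. Microglia markers (5 of 6 read, Tmem119 at 0) summed to 0 to 4365 CPM in AC (median 188), 0 to 2161 CPM in CA3 (median 106) and 0 to 251 CPM in CA1. In the 2 AC cells with under 1 CPM of them, N43 and N7, Kit was 1712 and 1970 CPM, and these were also the cells with the most Kitl. Oligodendrocyte markers had medians of 0 CPM in AC, 7.41 in CA3 and 267 in CA1 (2, 4 and 3 of 6 read, Mog and Cldn11 at 0). Their summed levels per cell reached 367, 955 and 354 CPM. Pyramidal cell markers summed to 0.229 to 157 CPM in AC (median 68.0, 5 of 5 read), 0.400 to 383 CPM in CA3 (median 9.29, 4 of 5) and 0.312 to 510 CPM in CA1 (median 50.4, 2 of 5). Their part and that of glial reads in the levels of Kit and Kitl was not tested.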

How the data were processed

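The authors deposited raw read counts per gene symbol for 47 single cells. The labels name Trimmomatic, STAR, featureCounts and GRCm38. The study's methods add Flexbar, name HTSeq as the counter and state that counts of identifiers sharing a symbol (Ensembl version 86) were averaged. Without molecular identifiers, reads are not independent molecules. Here, the 26 main cells were scaled with scran 1.30.0 (computeSumFactors in R 4.3.3, pools of 10 and 20), and levels are log2(normalised count + 1). CPM used all gene reads. A gene was compared where 10 or more of these cells had a read. With more CA3 than AC cells, this filter admits genes read mainly in CA3 more readily than genes read mainly in AC. No test was run. Alternatives were factors by library size, edgeR 4.0.16 (TMM) and DESeq2 1.42.0 (poscounts), pseudocounts of 10 and 0.1, other cell sets, thinning with seed 1, no gene filter and medians. Python 3.11.15 was used. Steps were tested on simulated data. Sequences came from GENCODE vM21 transcripts of GRCm38.

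Members and lists were chosen with earlier results of these data known. Named genes were Kit and Kitl, the called members of each list (up to 4 each way), interneuron class markers, the 5 most and 3 least correlated genes and 3 neighbours on each side. The difference of at least 1 spoken of as called is a size, not a test. Counts over the lists include 4 genes whose own values are not reported here.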

Additional observations from a re-analysis of the deposited data

Results flagged for a closer look

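Kit reads also stood in AC columns that the comparisons leave out. N4X held 6851 Kit reads (2113 CPM) beside 2139 CPM in N4, the column with which it was counted as 1 cell. N51 held 3159 Kit reads (1689 CPM), with 1775 Sv2c, 827 Prox1 and 45 Parm1 reads, no Lhx6 and no Ndnf read, and 1565 genes read. N9 held 4 Kit reads and 2 Gad1 reads. The NPY-negative CA3 column, the DG columns and the 8 CA3 columns outside the main cells had no Kit read, but of these 11 columns only N36 had Gad1 or Gad2 reads, and 9 held over 10000 CPM of astrocyte or oligodendrocyte markers.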

How the results depend on the processing

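No difference in the level of Kit or Kitl changed sign under an alternative. Kit, AC minus CA3, was 8.58 and 14.21 with pseudocounts of 10 and 0.1 and 6.88 over all labelled cells. CA1 minus CA3 was 9.53 and 15.16 with these pseudocounts, and AC minus CA1 was -5.23 over all labelled cells, where Kit was read in 63.2% of 19 AC cells. Leaving out 1 cell at a time gave 11.26 to 11.997 (without N38) for Kit, AC minus CA3, 11.96 to 12.95 for CA1 minus CA3 and -1.16 (without N2X) to -0.55 (without N1) for AC minus CA1, which passed a difference of 1 without N2X, N6, N41, N42 or N8. For Kitl, AC minus CA3 and AC minus CA1 were each 2.25 (without N43) to 3.37. Of the pathway genes 9 were higher and 12 lower, and relative to the median of all genes the balance turned to 15 higher and 9 lower. Over all genes 1049 were higher and 3120 lower (25.2% of called genes higher), against 1938 each way relative to the median, 543 higher over all labelled cells (13.4%) and 1854 higher without the gene filter. The cause was not tested. Thinned to 601781 reads, Kit, AC minus CA3, was 9.28. Over all labelled cells the share with Kit in CA3 was 9.52% and the share with Kitl in AC 26.3%, both within the intervals of the main cells. The other differences in level moved by less than the spread over cells, and the other counts of genes stayed within 1.5 times. For Kitl this spread, 4.56, exceeds the difference of 3.03 itself, so it is no measure of stability there. Kitl, AC minus CA3, was 1.91 and 4.31 with pseudocounts of 10 and 0.1, 1.52 over all labelled cells and 0 by medians. No paired analysis was possible because no label ties cells to mice and cell numbers are not shared between regions. Alternatives for Kitl, CA1 minus CA3, were not run, as both are at 0. Depth limits a value of 0 to 3 reads of the region, which is 0.0614 CPM in CA3 and 0.596 CPM in CA1.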

Other observations

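Among AC columns outside the main cells, N45 held 1302 Lhx6 reads and 10339 Gad1 reads with 0 Kit reads, and among CA3 columns N36 held 4528 Lhx6 reads and 40427 Gad1 reads with 0 Kit reads. N47 of AC had 7432 Parm1 reads without Kit, and N48 of AC had 9619 Sv2c reads and 1 Kitl read without Kit. Parm1 and Sv2c were thus each read at high level in an AC column that lacked Kit, and these columns had 1719 and 1814 genes read.

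Of the genes that damp receptor signals, 4 were compared between AC and CA1, and 2 were called higher in AC and 1 lower, beside 27.1% and 41.4% of all genes. Spred1, the lower one, was read in 3 of 3 CA1 cells at 358 CPM, beside 95.4 CPM in AC and 62.9 CPM in CA3. Spry4 was read in 2 of 3 CA1 cells at 261 CPM, beside 1.67 CPM in AC and 1.92 CPM in CA3, and Spry2 in 2 of 3 at 81.4 CPM, beside 0.0587 and 0.307 CPM. Dusp6 and Spry1 were each read in 1 CA1 cell. The Pik3cd subunit was read in 1 CA1 cell at 274 CPM of the region. Spry2, Spry4 and Pik3cd were picked after their values were seen.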
